A study of Mus musculus with 12 samples.

Results

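Ifitm1, Ifitm2 and Ifitm3 encode the interferon-inducible transmembrane proteins 1, 2 and 3. They are 3 of the 32285 genes counted in single T cells from mouse brain. They were taken up because earlier results of these same cells had shown Ifitm3 at a higher level in CD8 T cells of mice that carry the 5XFAD transgenes. The comparison of 5XFAD carriers with the other mice in CD8 T cells is therefore given below as a description without a test. The study profiled T cells by 5′ single-cell RNA sequencing and T cell receptor sequencing (10x Genomics), from 9-month-old female littermates of 4 genotypes. Perfused brain tissue was dissociated, cleared of myelin on Percoll, and CD4+, CD8+ and gamma-delta T cells were sorted and pooled from several mice. Each pool gave 1 RNA library and 1 receptor library.

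Wild-type (WT) littermates were sampled in 2 pools of 10 and 8 mice (WT-1 and WT-2). 5XFAD mice, which deposit amyloid in the brain, were sampled in 2 pools of 4 and 3 mice (5XFAD-1 and 5XFAD-2). The 5XFAD line was C57BL6 congenic. PS19 mice carry mutant human tau (MAPT) under the mouse prion protein promoter and came as B6C3F1/J. They were sampled in 1 pool of 4 mice. PS-5X mice carry both hemizygous transgenes and were sampled in 1 pool of 4 mice. All 4 genotypes were strain-matched littermates from crosses of hemizygous PS19 and 5XFAD mice and of their hemizygous offspring. The pools with amyloid are thus 5XFAD-1, 5XFAD-2 and PS-5X, the pools without it are WT-1, WT-2 and PS19, and the pools with mutant tau are PS19 and PS-5X. A pool is the unit of replication below. The p-values measure the spread between pools, each a mixture of several animals, and not between single mice.

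IFITM proteins are small membrane proteins that hinder the fusion of enveloped viruses with the cell. IFITM3 sits mainly in endosomes and lysosomes, whereas IFITM1 is found more at the cell surface. Their genes are induced by type I and type II interferons, through transcription factors that bind GAAA repeats near the start of transcription. In T cells Ifitm3 is best known from resident memory cells of the lung, where it protects cells against influenza virus.

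The 3 genes lie together on chromosome 7, at 140954837 to 140959686 for Ifitm2, 140967429 to 140969827 for Ifitm1 and 141009590 to 141010744 for Ifitm3 (RefSeq, GRCm38.p6). The sequences around their start sites are shown because 2 of the 3 genes hold the repeat that marks many interferon-induced genes. The motif searched was GAAA, any 2 bases and GAAA again, on both strands, in the 300 bases from 250 before to 50 after each start site. It occurred in 3.99% of the 27025 genes with such a window, in 13 of the 22 listed type I interferon genes that had one (59.1%), and in Ifitm2 and Ifitm3. The Ifitm1 window held no match. Capitals mark the matches in the pieces below. The Ifit3 pieces are from the gene used later to mark interferon-exposed cells, and there the matches lie on the other strand.
Ifitm2, chr7:140955988-140956017, minus strand, 56 to 27 bases before the start: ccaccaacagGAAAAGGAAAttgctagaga
Ifitm3, chr7:141010714-141010743, minus strand, bases 2 to 31 of the transcript: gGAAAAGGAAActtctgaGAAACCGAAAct
Ifit3, chr19:34583363-34583392, plus strand, 166 to 137 bases before the start: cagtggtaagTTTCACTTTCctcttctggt
Ifit3, chr19:34583397-34583426, plus strand, 132 to 103 bases before the start: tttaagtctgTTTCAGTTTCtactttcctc
Ifitm2 and Ifitm3 shared the same 10 letters, GAAAAGGAAA, before the start in Ifitm2 and just after it in Ifitm3. The 120 bases directly upstream of Ifitm3 (chr7:141010745-141010864) held no match and read, for comparison:
Ifitm3 upstream: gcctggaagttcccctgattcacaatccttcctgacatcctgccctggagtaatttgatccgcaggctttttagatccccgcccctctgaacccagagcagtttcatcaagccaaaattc
A match describes these letters only and is not evidence of binding.

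After filtering, 17376 cells remained, between 829 in WT-1 and 5896 in PS-5X. They comprised 11243 CD8, 3290 CD4 and 835 gamma-delta T cells by cluster markers, and 2008 cells in clusters given no class. Cd8b1 was detected in 83.7% to 100% of the cells of each CD8 cluster, Cd4 in 67.9% to 76.3% of each CD4 cluster and Trdc in 72.9% of the gamma-delta cluster. A UMI is a molecular tag that counts an RNA molecule once, and levels are given as CPM, the UMIs of a gene per 1000000 UMIs of the same cells. The CD8 sums ranged from 3742040 UMIs in WT-1 to 25669369 in PS-5X. The second WT and the second 5XFAD pool came from a sequencing run of their own. WT-1 stood apart: it shared 58 receptors with 5XFAD-1, 41 with PS19 and 3 with PS-5X, although none of its shared barcodes carried the same receptor. Another 6 receptors were common to PS19 and PS-5X, and no others occurred in 2 pools. The source of this sharing was not tested, and results are given with and without the WT-1 cells concerned where it matters.

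Ifitm genes were rare in these cells. Ifitm3 was detected in 874 cells (5.03%), Ifitm2 in 403 cells (2.32%) and Ifitm1 in 85 cells (0.489%). Of the other family members, Ifitm10 was detected in 40.9% of cells, with 132 CPM in CD8, 36.9 in CD4 and 8.40 in gamma-delta T cells. Ifitm5, Ifitm6 and Ifitm7 gave 1, 2 and 5 UMIs in all. The 3 members are similar in sequence, so reads that fit more than 1 of them could have been dropped or split in counting, which was not tested.

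In CD8 T cells the Ifitm3 level of the pools without amyloid was 1.45 CPM (PS19), 3.25 (WT-2) and 10.2 (WT-1). The pools with amyloid stood at 18.4 (5XFAD-2), 32.0 (5XFAD-1) and 35.4 CPM (PS-5X). The pools with amyloid did not overlap the others, and WT-1 was the highest of the pools without it. How many of all genes separated these pools was not counted, here or where a lack of overlap is given below. With 3 against 3 pools the smallest exact permutation p is 0.1, so separation alone says little. The mean was 28.6 ± 8.98 CPM with amyloid and 4.95 ± 4.59 CPM without (SD, n = 3 pools each), a ratio of 5.77. This is the contrast that led to the choice of these genes, so no test is attached to it. Its size within sequencing runs was close: 5.80 in the common run and 5.66 in the separate run. It was 3.15 between 5XFAD-1 and WT-1, 24.3 between PS-5X and PS19, and 12.1 over all pools but WT-1. The fitted log2 difference, with tau as a covariate, was 2.95, and 3.18 without the WT-1 cells whose receptors occurred in other pools. In the same fit 0 of 11423 genes passed an adjusted p of 0.05 (0%) in edgeR's quasi-likelihood test. An unadjusted p under 0.05 was reached by 1190 genes, DESeq2 called 88, and edgeR with the sequencing run as a block called 200.

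Shares of CD8 T cells with an Ifitm3 UMI ordered the pools as the levels did, except that 5XFAD-1 lay above PS-5X. 5XFAD-1 had 7.04% (exact 95% interval 5.88 to 8.36), PS-5X 6.73% (5.97 to 7.55) and 5XFAD-2 4.67% (3.61 to 5.94). WT-1 had 3.85% (2.30 to 6.01), WT-2 0.631% (0.346 to 1.06) and PS19 0.470% (0.189 to 0.966). Such intervals cover counting error only. For comparison, the share was 0.479% in the gamma-delta T cells of all pools and 0 of 836 cells in the S1pr5- and Cx3cr1-led CD8 cluster. Neither was set as a baseline beforehand, so these low values only describe the data. The median depth was 6512 UMIs in gamma-delta and 6365 in CD8 T cells.

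Ifitm2, the endosomal relative of Ifitm3, was unevenly spread over the pools. Its CD8 level was 15.9 CPM in 5XFAD-1, 6.95 in WT-1, 3.93 in 5XFAD-2, 2.61 in PS-5X, 1.21 in WT-2 and 0 in PS19. The PS19 value rests on 0 of 1490 cells, which allows a share of cells with a UMI of up to 0.201%. WT-1 lay above 5XFAD-2 and PS-5X, so the groups overlapped, and the fitted log2 difference of 2.13 is a description as for Ifitm3. In WT-1, 146 CD8 T cells carried a receptor found in another pool, and these held 21.9 CPM of Ifitm2 against 1.46 in the other 322. Without them the fitted difference was 3.28.

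Ifitm1 was the rarest. Its CD8 level was 14.6 CPM in 5XFAD-1, 3.97 in PS-5X, 3.83 in 5XFAD-2, 2.14 in WT-1, 0.817 in PS19 and 0.681 in WT-2, and the groups did not overlap. Few cells carried these counts: 89 of the 102 UMIs in PS-5X came from 1 cell, and 76 of the 181 in 5XFAD-1 from another. With the UMIs of the richest cell of each pool left out, PS-5X fell to 0.506 CPM, below WT-1 at 1.60, and the groups overlapped. This check was chosen after seeing the data. The fitted log2 difference of 2.82 fell to 1.99 without 5XFAD-1.

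**Figure D1:**
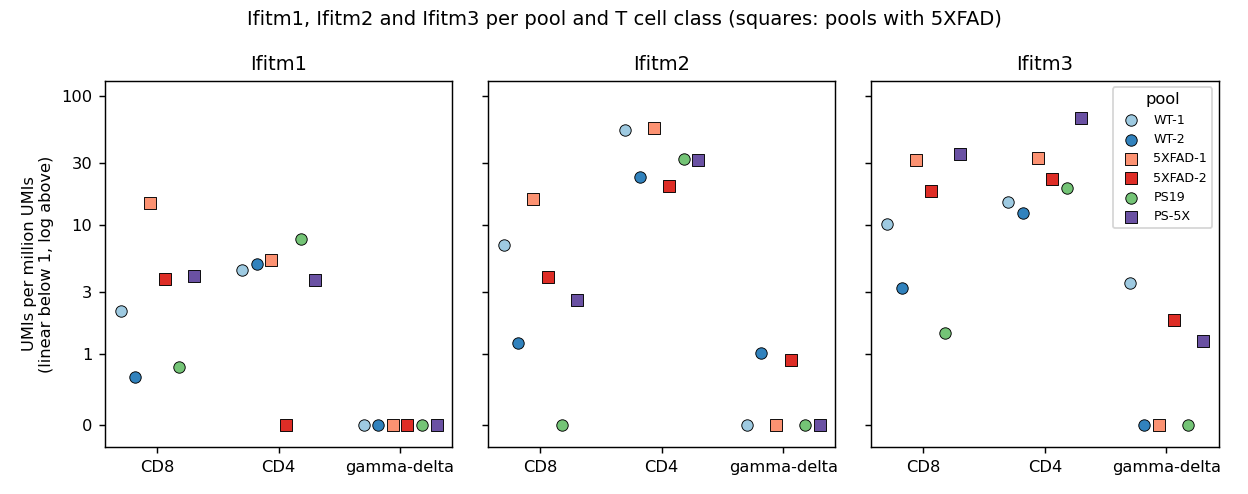
Levels of Ifitm1, Ifitm2 and Ifitm3 in CD8, CD4 and gamma-delta T cells of each pool, in CPM on an axis that is linear below 1 and logarithmic above; squares mark pools with the 5XFAD transgenes. Ifitm3 in CD8 T cells sits between 18.4 and 35.4 in those pools and between 1.45 and 10.2 in the others, and gamma-delta T cells sit at or below 3.52.

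CD4 T cells were not used to choose the genes, but they come from the same mice, pools and libraries as the CD8 T cells. Their test by amyloid is therefore not independent of that choice. In CD4 T cells Ifitm3 was higher with amyloid. PS-5X had 67.2 CPM, 5XFAD-1 32.9 and 5XFAD-2 22.8, and of the others PS19 had 19.3, WT-1 15.1 and WT-2 12.4. The groups did not overlap, though 5XFAD-2 lay close above PS19. The log2 difference was 1.41 ± 0.20 (SE) with an adjusted p of 0.0405 (edgeR quasi-likelihood, Benjamini-Hochberg over 9775 genes). Only 6 genes passed in this comparison (0.0614%), all higher with amyloid. The other 5 were Ccl4 (1.38), a chemokine, Gzma (3.05), a granzyme, Serpina3g (1.01), a protease inhibitor, Gpm6b (1.27) and Sostdc1 (4.46).

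The CD4 call was fragile. Leaving out any pool other than 5XFAD-2 moved the adjusted p to between 0.109 and 0.781, with log2 differences of 1.06 to 1.49, and without 5XFAD-2 it was 0.00227. With the sequencing run as a block the difference was 1.37 (adjusted p = 0.00588, 23 genes called). Without WT-1 cells that shared receptors it was 1.57 (adjusted p = 0.0209). With classes set from the lineage UMIs of each cell it was 1.31 (adjusted p = 1.00). After thinning every cell to 2000 UMIs, the mean share of Ifitm3-positive CD4 T cells was 4.05% ± 2.90 with amyloid and 1.95% ± 0.716 without (SD, n = 3), with an exact two-sided permutation p of 0.3, where 0.1 is the smallest possible.

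Ifitm2 in CD4 T cells did not follow Ifitm3. It was 56.4 CPM in 5XFAD-1, 54.3 in WT-1, 32.6 in PS19, 32.0 in PS-5X, 23.5 in WT-2 and 20.1 in 5XFAD-2, so that each run held a WT and a 5XFAD pool at similar levels. The log2 difference by amyloid was 0.10 ± 0.33 (edgeR adjusted p = 0.994). Of the WT-1 value, 35 of 61 UMIs came from 14 cells with receptors found in other pools, and the other WT-1 CD4 T cells held 25.7 CPM. Ifitm1 lay between 0 (5XFAD-2, 0 of 377 cells, which allows up to 0.796%) and 7.71 CPM (PS19), with a log2 difference of -0.92 ± 0.58 (edgeR adjusted p = 0.919).

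Gamma-delta T cells, whose cluster was led by Trdv4, Cd163l1 and Il17a, carried almost no Ifitm RNA. In 835 cells there were 0 UMIs of Ifitm1, 2 of Ifitm2 and 5 of Ifitm3, the last in 4 cells of WT-1, 5XFAD-2 and PS-5X. For Ifitm1, 0 of 5596152 UMIs allows up to 0.536 CPM. None of the 3 genes passed the filter on low counts, so no test by genotype was made in these cells. Among the 8191 genes that did pass, 13 were called by amyloid (0.159%), all higher, and 32 with the sequencing run as a block.

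Between CD8 and CD4 T cells, Ifitm2 differed the most of the 3 members. It was higher in CD4 than in CD8 T cells in all 6 pools, by 3.11 ± 0.32 on the log2 scale (edgeR quasi-likelihood with pool as a block, adjusted p = 1.1e-07), in a comparison where 30.7% of 10106 genes were called. Ifitm3 was higher in CD4 T cells as well, again in all 6 pools, by 0.88 ± 0.24 (adjusted p = 0.00598). This call was lost with DESeq2 (adjusted p = 0.110) and without the pool term (adjusted p = 0.346). Ifitm1 differed by 0.32 ± 0.53 in the same direction and did not pass (adjusted p = 0.699). With classes set from lineage UMIs it was lower in CD8 T cells by 1.25 on the log2 scale (adjusted p = 0.0315). The 6 CD4 sums alone were enough to take Ifitm2 and Ifitm3 through the filter on low counts, and the CD8 sums alone were not. The choice of genes tested thus favoured the lineage where these 2 were higher, and the edgeR p-values do not allow for this.

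Against gamma-delta T cells the members are given by their counts, without a p. They passed the filter on low counts only through the CD8 and CD4 sums, so the choice of genes already favoured a difference from the near-empty gamma-delta sums. By summed counts over all pools, Ifitm3 was 23.3 times higher in CD8 T cells (exact counting interval 9.98 to 72.0). Ifitm2, with 2 UMIs in gamma-delta T cells, was 12.7 times higher (3.49 to 105). Ifitm1 was at least 8.53-fold higher, set against 3 counts over all gamma-delta T cells. In this comparison 51.3% of 10106 genes were called, 25.4% higher and 25.9% lower in CD8 T cells.

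Within CD8 and CD4 T cells the 3 genes were concentrated in few clusters. The Ifitm genes and the listed interferon genes were left out of the variable genes that built the clusters, and the levels below are descriptions. Ifitm3 reached 330 CPM in a CD8 cluster of 245 cells led by Cxcl10, an interferon-induced chemokine, and Rsad2, an antiviral enzyme, where 76 cells (31.0%) were positive. Its level there was high in every pool: PS-5X had 419 CPM, WT-2 267, 5XFAD-2 258, 5XFAD-1 223, PS19 107 and WT-1 63.2. The WT-1, WT-2 and PS19 values rest on 9, 16 and 11 cells. Ifitm2 in this cluster was 1.32 CPM, with 2 positive cells.

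The other clusters separated the members in a different way. The CD4 cluster of 1856 antigen-experienced cells led by Tnfrsf4 (OX40) and Cd40lg held Ifitm3 and Ifitm2 at nearly the same level, 57.9 and 57.4 CPM, and Ifitm1 at 8.00. A CD8 cluster of 1470 cells led by Rgs16, Ccl3 and the checkpoint receptor gene Pdcd1 held 35.6 CPM of Ifitm3, 22.0 of Ifitm2 and 15.3 of Ifitm1. In that cluster Ifitm3 was 97.2 CPM in 5XFAD-1, 39.7 in WT-1, 25.8 in 5XFAD-2, 3.98 in PS-5X, 2.72 in PS19 and 0.968 in WT-2. PS-5X, the highest pool over all CD8 T cells, was thus among the low pools here. It was the highest pool in the Cxcl10-led cluster and in the CD8 cluster of 1699 cells led by Ly6a and Cdh1, at 50.7 CPM.

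Naive cells held almost none of the 3 genes. Ifitm3 was detected in 3 of 1928 naive CD8 T cells (0.156%) and in 6 of 1240 naive CD4 T cells (0.484%), against 5.25% and 11.2% of the other CD8 cells and of the Tnfrsf4-led CD4 cells. Ifitm1 was detected in 0 naive cells of either lineage. The CD8 cluster led by S1pr5 and Cx3cr1, genes of circulating effector cells, held no Ifitm3 UMI in 836 cells. The Foxp3 cluster of regulatory T cells held Ifitm2 in 14 and Ifitm3 in 5 of 194 cells. Naive clusters made up 443 of 1490 CD8 T cells of PS19, 527 of 2218 of WT-2, 244 of 1349 of 5XFAD-2, 74 of 468 of WT-1, 542 of 4000 of PS-5X and 98 of 1718 of 5XFAD-1. Their part in the levels by pool was not tested.

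**Figure D2:**
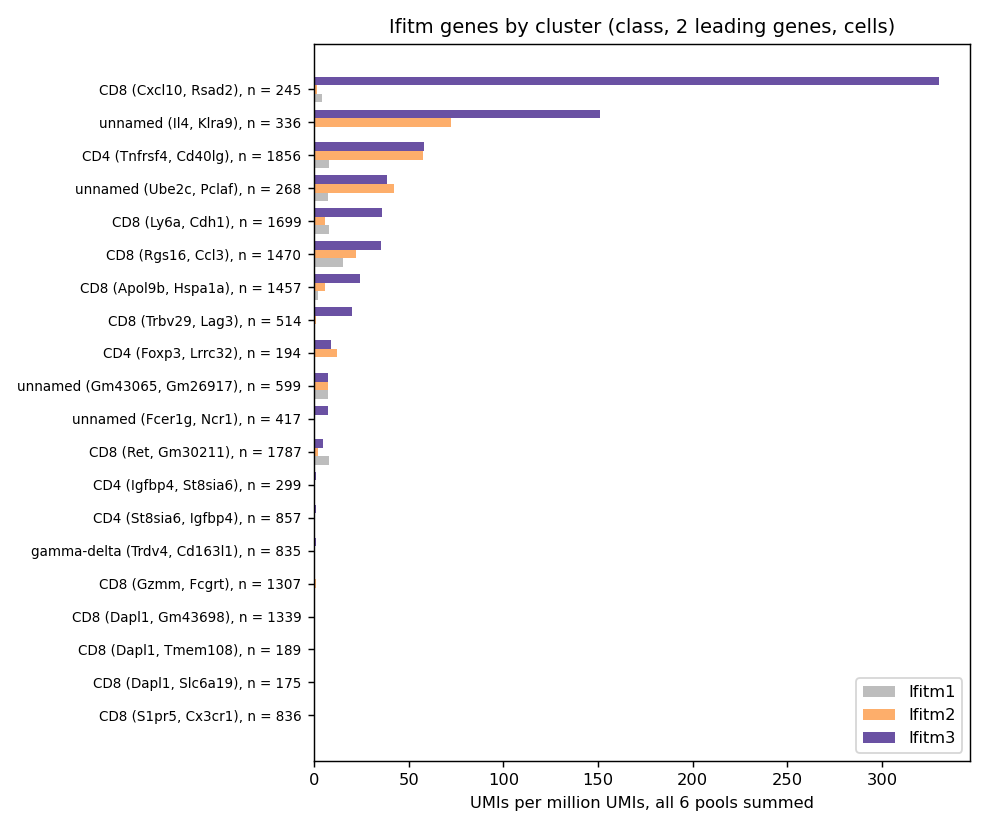
Levels of Ifitm1, Ifitm2 and Ifitm3 over all 6 pools in clusters of at least 150 cells, in CPM; each cluster is named by its class, 2 leading genes and its number of cells. Ifitm3 stands at 330 in the Cxcl10- and Rsad2-led CD8 cluster and at 57.9 in the Tnfrsf4-led CD4 cluster, and at 0 in the S1pr5-led CD8 cluster.

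Ifit3, an RNA-binding antiviral protein gene and a standard marker of interferon exposure, was used to ask how far the Ifitm genes and the interferon response occur in the same cells. Of the 492 Ifitm3-positive CD8 T cells, 246 also held an Ifit3 UMI, against 15.5% of the Ifitm3-negative cells. The share of Ifitm3-positive cells was 12.9% among Ifit3-positive and 2.64% among Ifit3-negative cells, whose median depths were 6756 and 6282 UMIs. It rose with the number of Ifit3 UMIs in the cell, from 2.64% at 0 to 7.03% at 1, 15.1% at 2 to 4 and 22.4% at 5 or more. At the same steps Ifitm2 was found in 1.14%, 1.62%, 1.82% and 1.37% of cells.

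This held in each pool after thinning all cells to 2000 UMIs. With and without an Ifit3 UMI, the Ifitm3 share was 11.6% and 2.20% for PS-5X, 9.30% and 1.70% for 5XFAD-2, and 7.32% and 3.00% for 5XFAD-1. It was 5.71% and 1.17% for WT-1, 4.35% and 0.236% for WT-2, and 1.64% and 0.212% for PS19. The difference was 5.24 percentage points on average, higher in 6 of 6 pools, with an exact two-sided sign-flip permutation p of 0.03125, the smallest that 6 pools can give. With classes set from lineage UMIs it was 4.53 points, higher in 5 of 6 pools, and the exact permutation p was 0.0625. On summed counts Ifitm3 was higher in Ifit3-positive CD8 T cells by 2.35 ± 0.23 on the log2 scale (edgeR with pool as a block, adjusted p = 9.5e-08), where 5.86% of 10332 genes were called, 4.17% higher and 1.68% lower. Leaving out any pool, and every alternative run on these sums, kept that call. The 6 Ifit3-positive sums alone were enough to take Ifitm3 through the filter on low counts, and the Ifit3-negative sums alone were not. The choice of genes tested thus favoured the group where Ifitm3 was higher, and the edgeR p-value does not allow for this.

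PS19 had Ifit3-positive cells with little Ifitm3. There 9.73% of CD8 T cells held an Ifit3 UMI, more than the 5.86% of WT-2, but only 2 of these 145 cells held Ifitm3. Its level among them was 5.91 CPM, against 31.6 in WT-2 and 17.8 in WT-1. In 5XFAD-1, 5XFAD-2 and PS-5X it was 59.3, 63.6 and 92.7 CPM. Outside the Ifit3-positive cells Ifitm3 was 25.7 CPM in 5XFAD-1, 12.0 in PS-5X, 11.4 in 5XFAD-2, 8.65 in WT-1, 1.22 and 0.916 in WT-2 and PS19, again without overlap between pools with and without amyloid. As this is the contrast behind the choice of the gene, it is given without a test.

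Neither Ifitm1 nor Ifitm2 went with Ifit3 in the same way. Ifitm1 differed by -0.82 ± 0.54 on the log2 scale between Ifit3-positive and Ifit3-negative CD8 T cells (edgeR adjusted p = 0.541). Ifitm2 did not pass the filter on low counts, and its share was 1.62% in Ifit3-positive and 1.14% in Ifit3-negative cells. After thinning, Ifitm2 differed by -0.49 percentage points (exact sign-flip permutation p = 0.3125, higher in 1 of 6 pools). Thinned Ifitm1 shares were lower by 0.31 points (p = 0.03125 in the same exact test, with no positive cell among the Ifit3-positive ones), but unthinned they were higher by 0.20 points (exact permutation p = 0.281). At this depth no direction can be read for Ifitm1.

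**Figure D3:**
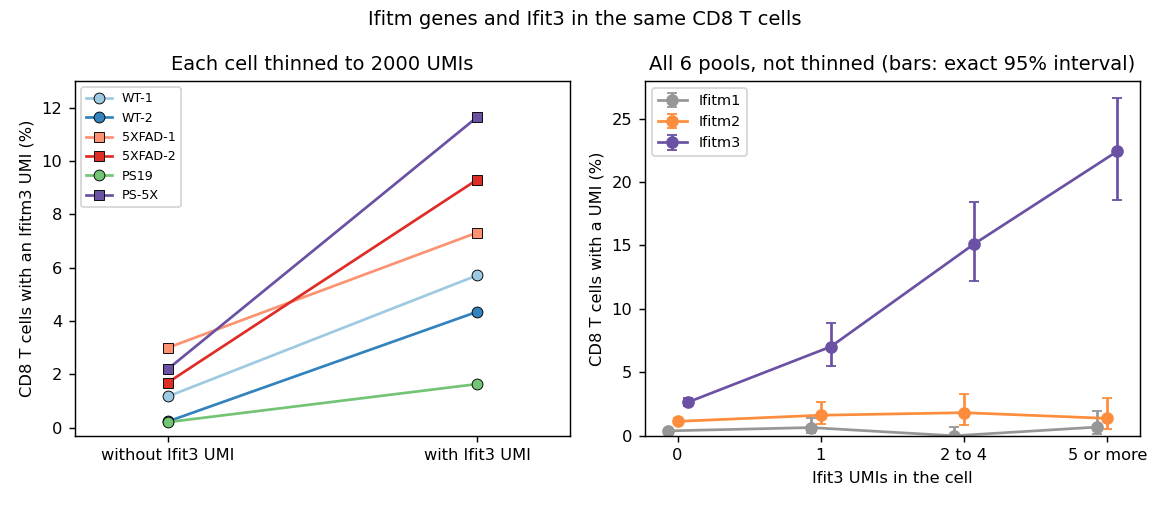
Left: share of CD8 T cells with an Ifitm3 UMI among cells without and with an Ifit3 UMI, each cell thinned to 2000 UMIs, with a line per pool; all 6 lines rise, by 5.24 percentage points on average. Right: share of CD8 T cells with a UMI of each member by the number of Ifit3 UMIs, not thinned, over all pools, with exact 95% intervals; Ifitm3 goes from 2.64% to 22.4%, while Ifitm2 stays between 1.14% and 1.82%.

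In CD4 T cells Ifit3 was rarer, in 184 of 3290 cells. Of 218 Ifitm3-positive CD4 T cells 39 (17.9%) held an Ifit3 UMI, against 4.72% of the others. On summed counts Ifitm3 was higher in Ifit3-positive CD4 T cells by 1.62 ± 0.25 on the log2 scale (edgeR adjusted p = 0.000244, 2.32% of 7145 genes called, 1.78% higher and 0.546% lower). Without PS-5X, which held 91 of the 184 Ifit3-positive cells, the difference was 0.96 and the call was lost (adjusted p = 0.361). The Ifit3-negative sums alone were not enough to take Ifitm3 through the filter on low counts here either. Ifitm2 differed by -0.93 ± 0.52 (adjusted p = 0.636), and by -2.08 without 5XFAD-2 (adjusted p = 0.00824). Whether the Ifit3 difference itself differs between lineages was not tested.

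Cells with Ifitm1 or Ifitm2 often held Ifitm3 too, although only 74 of the 492 Ifitm3-positive CD8 T cells held Ifitm2, and the cells with several members were deeper. Of 137 Ifitm2-positive CD8 T cells 54.0% held Ifitm3, against 3.76% of the others, with median depths of 7735 and 6345 UMIs. Thinned to 2000 UMIs these shares were 30.8% and 2.12%. Of 45 Ifitm1-positive CD8 T cells 26 held Ifitm3 and 18 held Ifitm2. In CD4 T cells 39.9% of the Ifitm2-positive cells held Ifitm3, against 4.95% of the others. Members of a clone share their history, so these cells are not independent of each other.

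Itgae, the gene of the CD103 integrin chain of tissue-resident T cells, was compared with the members. Of 1405 CD8 T cells with an Itgae UMI, 9.96% held Ifitm3, 4.70% held Ifitm2 and 1.78% held Ifitm1, against 3.58%, 0.722% and 0.203% of the others. In 5XFAD-1 Ifitm3 was in 23.8% of the Itgae-positive and 4.49% of the other CD8 T cells, in 5XFAD-2 in 12.0% and 3.00%, and in WT-1 in 11.5% and 2.88%. In PS-5X the shares were 9.34% and 6.35%, in WT-2 0.966% and 0.597%, and in PS19 0.602% and 0.453%. Thinned to 2000 UMIs, the shares over all pools were 4.96% and 2.11%, and no Itgae-positive cell of WT-2 or PS19 then held an Ifitm3 UMI. Of the 137 Ifitm2-positive CD8 T cells 48.2% held an Itgae UMI, of the 492 Ifitm3-positive ones 28.5%.

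Receptor sequences showed that much of the signal in 5XFAD-1 lay in few clones. A clone here is the set of cells of a pool with the same receptor chains. Among 77 CD8 clones of at least 10 cells, 5XFAD-1 held 9, and in 5 of these at least 25% of the cells were Ifitm3-positive. The largest of the 5 had 47 cells, of which 30 held Ifitm3, 25 Ifitm2 and 8 Ifitm1. A clone of 12 cells held Ifitm3 in 12 and Ifitm2 in 9, and a clone of 27 cells held Ifitm3 in 11 and Ifitm2 in 18. These 3 clones lay mostly in the Rgs16- and Pdcd1-led cluster, and 46.8%, 100% and 51.9% of their cells held Itgae. Ifit3 was found in 6, 0 and 5 of their cells, so that a clone with Ifitm3 in every cell held no Ifit3 UMI. Cd8b1 was in 84% and Cd4 in 12.2% of the cells of the Rgs16-led cluster, and neither was read per clone. With doublets kept, an unnamed cluster of 137 cells had Ifitm1 and Ifitm2 among its leading genes, with Cd4 in 61.3% and Cd8b1 in 42.3%. Expanded CD8 T cells of 5XFAD-1 then numbered 678 rather than 753. Whether all cells of these clones are CD8 T cells was not tested.

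Together the 5 clones made up 117 cells, 6.81% of the CD8 T cells of 5XFAD-1, and held 62 of its 121 Ifitm3-positive, 54 of its 80 Ifitm2-positive and 12 of its 22 Ifitm1-positive CD8 T cells. Without them the CD8 level in 5XFAD-1 fell from 32.0 to 16.5 CPM for Ifitm3, from 15.9 to 5.40 for Ifitm2 and from 14.6 to 10.2 for Ifitm1. The Ifitm3 value stayed above those of WT-1, WT-2 and PS19, while the Ifitm2 value then lay below that of WT-1. The clones were singled out after their values were seen. Those not described above had 20 and 11 cells, with Ifitm3 in 5 and 4 and Ifitm2 in 2 and 0. Some WT-1 cells carried the receptors of these clones. Of 4 WT-1 cells with the receptor of the 27-cell clone, 3 held Ifitm2, 2 Ifitm1 and 2 Ifitm3, while the 3 WT-1 cells with the receptor of the 47-cell clone held none of the 3 genes.

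Clones in the other pools were partly like these. In PS-5X 34 clones of at least 10 cells were found, of which 13 held no Ifitm3-positive cell and 2 reached 25%. The largest, with 351 cells, held Ifitm3 in 35 cells (9.97%), Ifit3 in 40.2% and Ifitm2 in 1 cell. A clone of 21 cells held Ifitm3 in 8 and Ifit3 in 57.1% of its cells. In 5XFAD-2 a clone of 13 cells held Ifitm3 in 7, and a clone of 29 cells in 7. Itgae was in 53.8% and 55.2% of their cells, Ifit3 in 2 and 3 cells, and Ifitm2 in 0 and 2. Of 18 such clones in WT-2 16 had no Ifitm3-positive cell, and of 5 in PS19 all 5 had none. In CD4 T cells of PS-5X a clone of 46 cells held Ifitm3 in 16, Ifitm2 in 9 and Ifit3 in 3, with Itgae in 87.0% of cells. A clone of 15 CD4 T cells held Ifitm3 in 8.

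**Figure D4:**
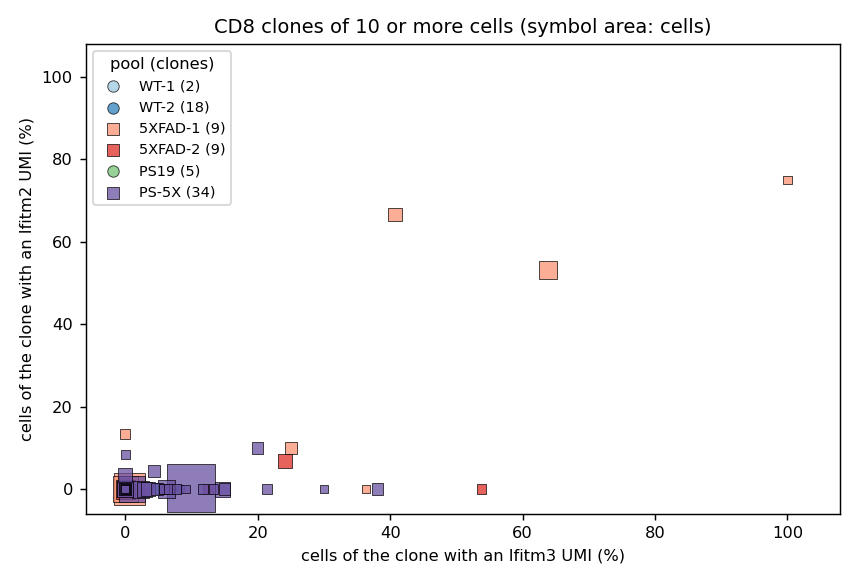
Share of cells with an Ifitm2 UMI against the share with an Ifitm3 UMI in each of 77 CD8 clones of at least 10 cells, coloured by pool, with symbol area in proportion to the number of cells. The 3 clones above 50% for Ifitm2 all belong to 5XFAD-1, and the 351-cell PS-5X clone sits at 9.97% for Ifitm3.

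Expanded clones carried more Ifitm3 than singletons. In CD8 T cells the level in clones of 2 or more cells and in singletons was 48.4 and 12.9 CPM for 5XFAD-1, 43.2 and 26.9 for PS-5X, 31.0 and 8.89 for 5XFAD-2, and 22.5 and 7.47 for WT-1. It was 2.35 and 3.94 in WT-2, and 0.893 and 1.70 in PS19, so that 4 of 6 pools were higher in expanded cells. Counts in those last 2 pools were small, at 8 and 35 UMIs in WT-2 and 2 and 14 in PS19. The log2 difference was 1.01 ± 0.23 (edgeR with pool as a block, adjusted p = 0.00287), where 30.9% of 10204 genes were called. Without the pool term the adjusted p was 0.219, and with DESeq2 it was 0.287. Ifitm2 differed by 1.25 ± 0.63 (adjusted p = 0.155), and Ifitm1 did not pass the filter on low counts.

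Naive clusters held almost no Ifitm3, so the comparison was repeated outside the naive clusters. The difference was then 0.68 ± 0.23 (adjusted p = 0.0457, 21.1% of 10040 genes called). It was 0.32 without 5XFAD-1, the pool with the 5 clones above (adjusted p = 0.368). The call was also lost without 5XFAD-2 (adjusted p = 0.132), without WT-1 (0.0800), with doublets kept (0.304), with DESeq2 (0.823), without the pool term (0.487), and without the WT-1 cells that shared receptors (0.0677). Ifitm2 outside the naive clusters differed by 1.04 ± 0.62 (adjusted p = 0.270).

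**Figure D5:**
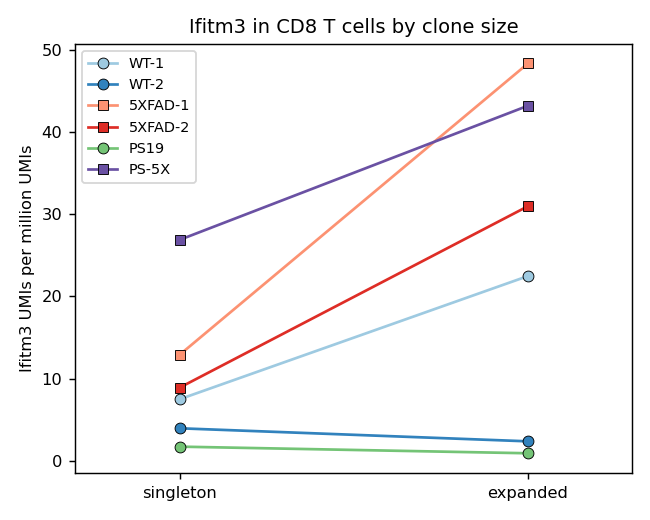
Ifitm3 level in singleton and expanded CD8 T cells of each pool, in CPM, with a line per pool. Lines rise in WT-1, 5XFAD-1, 5XFAD-2 and PS-5X, and fall slightly in WT-2 and PS19, where both values are below 4.

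Mutant tau was the other factor of the cross, compared over PS19 and PS-5X against the other 4 pools with amyloid as a covariate. In CD8 T cells Ifitm3 differed by 0.04 ± 0.44 on the log2 scale (edgeR adjusted p = 0.999). Of the tau pools, PS19 was the lowest and PS-5X the highest of all 6. Ifitm2 differed by -2.32 ± 0.83 (adjusted p = 0.733) and Ifitm1 by -1.004 ± 0.59 (adjusted p = 0.779), with 0 of 11662 genes called (0%), 780 at an unadjusted p under 0.05 and 30 called by DESeq2. With the sequencing run as a block 45 genes passed, Ifitm2 among them at -3.03 (adjusted p = 0.0249) and Ifitm1 at -1.73 (adjusted p = 0.0275), both lower with tau. In CD4 T cells Ifitm3 differed by 1.05 ± 0.20 toward tau and did not pass (adjusted p = 0.136), and by 0.59 without PS-5X. There 1 of 10040 genes was called (0.00996%), Spp1, which was lower. With the block 33 genes passed, Ifitm3 not among them (adjusted p = 0.162). An interaction of amyloid and tau cannot be told apart from pool differences, since PS19 and PS-5X are 1 pool each.

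Other interferon-induced genes did not all follow the Ifitm genes across lineages. Of 27 type I interferon genes tested, 16 were higher and 1 lower in CD8 than in CD4 T cells, where 14.8% of all genes were higher and 15.9% lower, with a median log2 difference of 0.42 against 0.01 over all genes. Ifit3 was higher in CD8 T cells by 1.87 ± 0.18 (adjusted p = 4.8e-08), as were Ifit1 (1.18), Irf7 (0.56), the regulator of the response, and Bst2 (0.42), whose product tethers budding viruses. Isg15 differed by 0.27 (adjusted p = 0.271). The member of the list that was lower in CD8 T cells was Ifi27l2a (-0.88), the direction of Ifitm2 and Ifitm3. Of the interferon gamma list 8 of 16 tested genes were higher and 3 lower, Gbp2 and Irf1 among the higher (0.35 and 0.22) and Iigp1 among the lower (-0.50).

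Against gamma-delta T cells 25 of 27 type I genes were higher in CD8 T cells and 0 lower, against 25.4% and 25.9% of all genes (median 1.53 against 0.03 over all genes), Ifit3 by 2.82, Ifi27l2a by 2.63 and Isg15 by 0.78. By amyloid in CD8 T cells 0 of 29 passed, where 0 of 11423 genes did. All 29 were above 0, with a median of 0.80 against 0.0003 over all genes. The share of all genes above 0 was not counted. Ifit3, Ifit1, Isg15 and Bst2 stood at 1.28, 1.25, 1.09 and 0.59. In CD4 T cells 6 of 9775 genes passed (0.0614%), Ifitm3 among them, and 0 of 28 type I genes did. With so few genes called, this count does not set Ifitm3 apart from the list. The type I median was 0.26 against -0.0005 over all genes, and Ifit3 stood at 0.63 ± 0.49 (edgeR adjusted p = 0.920). Between expanded and singleton CD8 T cells 19 of 29 were higher and 0 lower, against 16.4% higher and 14.5% lower over all genes, with a median of 0.27, Ifi27l2a at 0.67, Ifit1 at 0.60, Isg15 at 0.59 and Ifit3 at 0.40. Outside the naive clusters 8 of 29 were higher, where 10.6% of all genes were, with Ifi27l2a at 0.65 and Isg15 at 0.36. In Ifit3-positive cells all 27 tested type I genes were higher in CD8 T cells and all 23 in CD4 T cells, against 4.17% and 1.78% of all genes. These cells were chosen by Ifit3, a gene of the same response. Of 12 genes for interferon receptors and their signalling, 6 were higher and 1 lower in Ifit3-positive CD8 T cells, against 4.17% and 1.68% of all genes. In CD8 against CD4 T cells 3 were higher and 2 lower, against 30.7% of all genes called there. By amyloid or tau 0 passed in either lineage, where 0% to 0.0614% of all genes did.

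Genes with levels most like those of the members were taken over the 18 sums of 3 lineages in 6 pools. For Ifitm3 these were Rnf149 (Pearson r = 0.916 of log2 values), Ptger4, a prostaglandin E2 receptor gene, Crbn, and Socs3 (0.869), a feedback inhibitor of cytokine signalling. For Ifitm2 they were Tgfbr3 (0.914), Tnfrsf4, Cd4, Itpkb and Jak2 (0.893), and for Ifitm1 Adss (0.839), Dpm1, Ptger4, Lgals9 and Vwa8 (0.797). Among the 6 CD8 sums alone Ifitm3 was most like Cish (0.994), another inhibitor of cytokine signalling, Med14, Qpct, Map4k1 and Id2 (0.988). The sums share libraries and depth, and 6102 and 5936 genes were compared, so these values only describe the data.

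Cells of other types can carry Ifitm RNA, and their markers were read in the same CD8 T cells. The summed level of 13 microglia and macrophage genes was 263 CPM in Ifitm3-positive and 249 CPM in Ifitm3-negative CD8 T cells, and 237 to 277 CPM across the pools. C1qb, C1qc, Tmem119, Apoe and Trem2 were at 0 UMIs in the 492 Ifitm3-positive cells, and most of the sum came from Ctss and Cst3, which T cells also express. The sum of 8 monocyte and neutrophil genes was higher in Ifitm3-positive cells, at 1258 against 680 CPM, with most UMIs from Ly6c2, Plac8 and Ccr2. Its part in the Ifitm3 levels was not tested. Lyz2, S100a8, S100a9 and Csf3r were at 0. The endothelial and pericyte genes summed to 20.1 against 28.6 CPM, the B and plasma cell genes to 50.8 against 118, and the neuron and glia genes to 79.9 against 92.3, with Cldn5, Flt1, Cdh5, Cd79a, Ms4a1, Snap25, Gfap and Aqp4 at 0. Cd3e was detected in 99.6% of the Ifitm3-positive CD8 T cells and a receptor in 89.4%, and their median depth was 7268 UMIs against 6323 in the others.

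In CD4 T cells, where the call by amyloid was made, the monocyte and neutrophil genes summed to 348 CPM in the 218 Ifitm3-positive and 127 CPM in the Ifitm3-negative cells, and to 120 to 171 CPM across the pools. The UMIs came from Ly6c2, Ccr2 and Plac8, with Lyz2, S100a8, S100a9, Csf3r and Ifitm6 at 0. The microglia and macrophage genes summed to 274 against 247 CPM, the endothelial genes to 39.3 against 78.3, the B and plasma cell genes to 77.2 against 203, and the neuron and glia genes to 95.5 against 103. Their part in the CD4 result was not tested.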

How the data were processed

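The deposited files are UMI count matrices (UMI counts per gene and cell barcode) and receptor contig tables, made by the authors with Cell Ranger 6.0.1 per the submitters' processing notes, which name GRCm38 and mm10 without a role. There are 12 samples, 6 RNA and 6 receptor libraries, for 6 pools. Cells were tied to pools by the barcode suffix and the origin column of the contig table. 0 columns belonged to samples outside the series.

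Barcodes under 500 genes or over 10% mitochondrial UMIs were dropped. Scrublet scores removed doublets at 0.8% per 1000 barcodes, since its automatic threshold marked at most 1.05%. Cells were clustered in scanpy 1.11.5 (1971 variable genes without Ifitm and interferon genes, 30 principal components, 15 neighbours, Leiden 1.0 with leidenalg 0.10.2). A class needed its lead marker in at least 50% of cells, the other lead marker in at most 20% and 3 lineage markers. A cluster with at least 6 of 8 naive markers up 1.5-fold was called naive. A mixed naive cluster was clustered again, a step chosen after seeing the data. Between 9.48% and 20.0% of cells per pool stayed in unnamed clusters.

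For each class, UMI counts of a pool's cells were added up, and edgeR 4.0.16 compared these sums (quasi-likelihood, TMM, R 4.3.3), with Benjamini-Hochberg adjustment over all genes tested. Amyloid and tau were terms of 1 model, and comparisons within pools had pool as a block. The SE given with an edgeR log2 difference is its absolute value divided by the square root of the F statistic. It thus restates that test. Thinned shares used 2000 UMIs per cell. Tests were tried on simulated counts with 100 genes changed 2-fold and 100 changed 4-fold: 85% and 97% were recovered for tau in CD8 T cells, 96% and 99% for CD8 against CD4 and for expanded against singleton cells, and 95% and 97% for Ifit3-positive against Ifit3-negative cells. Every simulated gene had the same dispersion, and no differences between pools were added. These shares cover genes of all levels and do not say how often genes as rare as the members are recovered. Alternatives were DESeq2 1.42.0, its size factors, no gene filter, the sequencing run as a block, no pool term, doublets kept, classes from lineage UMIs, WT-1 cells with shared receptors left out, other thinning, and each pool left out.

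Replicate numbers of WT and 5XFAD pools go with the sequencing run in the labels. The deviations of same-numbered pools correlated at 0.281 in CD8, 0.139 in CD4 and 0.136 in gamma-delta T cells for amyloid, and at 0.265 and 0.135 in CD8 and CD4 T cells for tau.

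Named were the members, 6 type I and 3 interferon gamma genes and the 5 genes most like each member (mean of at least 20 CPM, pseudocount 1), of which 1 is not reported here. The genes called by amyloid or tau in CD4 T cells were named after their values were seen. The members and lists were chosen with earlier results of these data known.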

Additional observations from a re-analysis of the deposited data

Results flagged for a closer look

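The difference in Ifitm3 between expanded and singleton CD8 T cells went up in every pool with 5XFAD alone and down in PS19: it was 35.5 CPM for 5XFAD-1, 22.1 for 5XFAD-2 and -0.807 for PS19. PS-5X stood at 16.3 CPM. Of the WT pools, WT-1 had 22.5 CPM in expanded and 7.47 in singleton cells, and WT-2 2.35 and 3.94. The difference between genotypes was not tested, and PS19 is 1 pool with 2 UMIs in its expanded cells.

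Clusters given no class were not used in the comparisons. Of the larger ones, those below were picked because Ifitm RNA was higher in every pool with amyloid than in every other pool. That order is therefore not a result. In a cluster of 336 cells led by Il4, Klra9 and Zbtb16, a transcription factor gene of innate-like T cells, 5XFAD-1 had 330 CPM of Ifitm3, PS-5X 222 and 5XFAD-2 119, while WT-1 had 63.0, WT-2 34.6 and PS19 5.66. Ifitm2 there was 144, 123 and 50.3 CPM, and 31.5, 17.3 and 17.0 CPM, in the same order. In a cluster of 599 cells led by Gm43065 and Gm26917, Ifitm3 was 17.7 CPM for 5XFAD-1, 7.38 for 5XFAD-2 and 5.35 for PS-5X. In a cluster of 417 cells led by Fcer1g and Ncr1 it was 3.68, 10.5 and 20.2 CPM for the same pools. The lower values of WT-1, WT-2 and PS19 in the Gm43065- and Fcer1g-led clusters are not printed. A cluster of 12 cells led by the endothelial genes Flt1 and Cldn5 held 1100 CPM of Ifitm3 over all pools, with a UMI in each cell.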

How the results depend on the processing

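Of the alternatives that kept all pools, 238 values held their direction and side of the threshold, 17 lost the threshold, 9 gained it, 26 counts or values moved and 13 reversed, and the cause was not tested. With a pool left out these numbers were 212, 26, 1, 22 and 11. Fits with no gene filter gave implausibly small p-values and carry little weight.

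Genes called by amyloid numbered 88 (DESeq2), 564 (no filter), 200 (run as replicate block) and 106 (without WT-1 cells of shared receptors) in CD8 T cells. They numbered 11, 117, 23 and, with lineage-UMI classes, 0 in CD4 T cells. In gamma-delta T cells they were 100 (no filter), 32 (block), 8 (doublets kept) and 30 (lineage-UMI classes). By tau they were 30 (DESeq2), 238 (no filter) and 45 (block) in CD8 T cells, and 15, 122, 33, 3 (doublets kept) and 2 (without WT-1 shared cells) in CD4 T cells. Without the pool term, the no replicate block setting, 2092 genes passed for expanded cells, 1062 outside naive clusters and 251 for Ifit3 in CD8 T cells. DESeq2 called 1329 and 393 for the last 2, and no filter gave 254 for Ifit3 in CD4 T cells. Leaving out a pool gave 0 to 285, 0 to 53 and 0 to 21 by amyloid in CD8, CD4 and gamma-delta T cells, 0 to 6 and 0 to 11 by tau in CD8 and CD4, and 381 to 598 and 105 to 168 by Ifit3.

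By amyloid in CD4 T cells Ifitm1 was 0.57 with lineage-UMI classes, Ifitm3 1.31 with the same, and Ifitm2 -0.021 with DESeq2, -0.066 with the replicate block, -0.26 without WT-2 and -0.37 without 5XFAD-1. By tau in CD8 T cells Ifitm1 was -1.01 and Ifitm2 -2.31 with no filter, and -1.73 and -3.03 with the replicate block. Ifitm3 by tau in CD8 T cells was -0.54 with DESeq2, -0.33 with the replicate block, -0.02 without WT-2, -0.29 without 5XFAD-2 and -1.84 without PS-5X. By tau in CD4 T cells Ifitm1 was -0.31 with lineage-UMI classes, Ifitm3 1.06 with no filter, and Ifitm2 0.078 without WT-1 shared cells, 0.06 without WT-1 and 0.29 without 5XFAD-1.

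For CD8 against CD4, Ifitm1 was 0.038 without the pool term and -1.25 with lineage-UMI classes, and Ifitm3 -1.13 with DESeq2 and -0.74 without the pool term. Against gamma-delta T cells, where no call is read, fitted Ifitm1 was 1.01 with doublets kept, and Ifitm2 3.83 without the pool term, 0.48 with doublets kept and 0.86 with lineage-UMI classes. For expanded cells Ifitm2 was 1.24 with no filter and Ifitm3 0.74 with DESeq2 and 1.16 without the pool term. Outside naive clusters Ifitm2 was 1.04 with no filter, and Ifitm3 0.34 with DESeq2, 0.81 without the pool term, 0.29 with doublets kept and 0.64 without WT-1 shared cells. For Ifit3 in CD8 T cells Ifitm1 was -0.85 with no filter.

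With a pool left out, the median log2 difference of the 3 members by amyloid in CD8 T cells ranged over 1.99 to 3.38. Single members ranged over 1.99 to 3.25 (Ifitm1), 1.38 to 3.38 (Ifitm2) and 2.20 to 3.56 (Ifitm3). By amyloid in CD4, log2 differences ranged over -0.37 to 0.39 for Ifitm2 and 1.06 to 1.57 for Ifitm3. By tau they ranged over -1.84 to 0.52 for Ifitm3 in CD8 and -0.40 to 0.29 for Ifitm2 in CD4. They ranged over 6.78 to 7.85 and 2.49 to 4.60 for Ifitm1 and Ifitm2 against gamma-delta, 0.32 to 0.98 for Ifitm3 outside naive clusters, and -2.08 to -0.63 and 0.96 to 1.75 for Ifitm2 and Ifitm3 by Ifit3 in CD4.

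Differences in share, in percentage points, were 0.677 (lineage-UMI classes), 0.0671 (without WT-1 shared cells) and 0.108 (without 5XFAD-2) for Ifitm1 by amyloid in CD4, with -0.419 to 0.108 over pools left out. For Ifitm2 they were -0.133 (1000 UMIs), -0.197 (without WT-2), -0.602 (without 5XFAD-1) and -0.206 (without PS19), up to 1.02. By Ifit3 in CD8, Ifitm1 was -0.204 (1000 UMIs), 0.203 (not thinned), -0.119 (doublets kept), -0.272 (without WT-1 shared cells) and -0.355 to -0.165 with a pool left out, Ifitm2 was 0.0216 (not thinned), and Ifitm3 was 4.53 (lineage-UMI classes, p = 0.0625 in the exact permutation test over all 6 pools) and 4.40 to 6.003. With 5 pools the smallest exact p is 0.0625, so calls lost with a pool left out follow from fewer samples.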
